A study of Mus musculus with 2 samples.

Results

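T cells that carried Ly49 receptor transcripts but no Cd4 or Cd8 at the detection gate made up 594 of the 11318 cell barcodes that passed quality limits in CD3-selected cells of B16F10 melanoma, or 5.25% (exact 95% interval 4.84 to 5.68). They were chosen on measured counts. Each had at least 5 counts of 1 or more of Klra1, Klra6, Klra7 and Klra9, at least 5 counts of Trbc2 or Cd3d (T cell receptor beta constant region, CD3 delta chain), under 5 counts each of Cd8a, Cd8b1, Cd4, Csf1r and Adgre1, and under 10 of Mlana. Those gene levels are therefore a description and no finding. Klrb1c, Xcl1 and Cd7 were given beforehand as markers of these cells, so their levels are likewise a description. The same T cell gate without the Ly49 and coreceptor terms held 7422 cells, of which these were 8.0% (7.40 to 8.64).

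B16F10 is a transplantable mouse melanoma line, and the tumours were taken 14 days after transplantation. Intratumoral CD3-bearing cells labelled wild-type (WT) and Nr4a knockout (Nr4a KO) were marked with hashtag antibodies, pooled and captured together, giving 1 mRNA library and 1 hashtag library; 11808 barcodes occur in both tables. The labels number 6 hashtags, taken here as A0301 to A0306, tie none of them to a genotype and give no age, so WT and Nr4a KO cells could not be set apart. The series title names Nr4a1 and Nr4a2 as the deleted genes, which encode nuclear receptors induced by T cell receptor signalling. How they were deleted, whether in all cells or through a Cre line, is not stated in the labels. With 1 library and no stated replicate, the classes below are compared by level with no test, and intervals are exact 95% ranges that cover counting error over cells and nothing else.

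Ly49 receptors are C-type lectin-like proteins of the mouse Klra genes, which lie side by side in the natural killer gene complex. Most bind MHC class I and deliver an inhibitory signal, and activating members signal through the adaptor DAP12 (Tyrobp). They are best known on natural killer (NK) cells, which switch on each Ly49 gene in some cells and not in others. NKT cells, memory-phenotype CD8 T cells, a regulatory CD8 T cell subset marked by Helios (Ikzf2) and some T cells without CD4 or CD8 also carry them.

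The 4 genes of the gate sit on the minus strand of chromosome 6 (GRCm38): Klra6 (Ly49F) at 130013033 to 130026954, Klra9 (Ly49I) at 130178675 to 130193112, Klra7 (Ly49G) at 130218605 to 130233322 and Klra1 (Ly49A) at 130363917 to 130386874. The RefSeq promoter windows (GRCm38.p6, 300 bases around the annotated start, 5′ to 3′ on the gene's strand) are printed for the 3 genes that most often admitted a cell, because the cells were rich in Tcf7, whose protein TCF1 is known to take part in Ly49 gene activation. Capitals mark a match to CTTTGA, 1 form of the core of a TCF site, or TGTGGT, 1 form of a RUNX site, searched on both strands. Other forms of these sites were not searched, so a window without a match can still hold one.
Klra7: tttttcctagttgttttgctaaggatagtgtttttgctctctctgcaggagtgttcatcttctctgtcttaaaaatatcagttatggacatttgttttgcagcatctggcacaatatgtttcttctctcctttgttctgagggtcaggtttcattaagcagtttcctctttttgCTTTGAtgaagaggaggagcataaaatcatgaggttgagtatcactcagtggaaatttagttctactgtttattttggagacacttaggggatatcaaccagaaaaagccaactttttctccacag
Klra6: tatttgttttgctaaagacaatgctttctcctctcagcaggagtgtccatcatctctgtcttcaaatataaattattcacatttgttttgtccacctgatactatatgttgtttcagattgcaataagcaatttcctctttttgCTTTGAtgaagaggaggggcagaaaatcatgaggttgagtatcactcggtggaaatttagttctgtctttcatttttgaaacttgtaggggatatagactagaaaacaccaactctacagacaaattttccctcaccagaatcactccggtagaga
Klra1: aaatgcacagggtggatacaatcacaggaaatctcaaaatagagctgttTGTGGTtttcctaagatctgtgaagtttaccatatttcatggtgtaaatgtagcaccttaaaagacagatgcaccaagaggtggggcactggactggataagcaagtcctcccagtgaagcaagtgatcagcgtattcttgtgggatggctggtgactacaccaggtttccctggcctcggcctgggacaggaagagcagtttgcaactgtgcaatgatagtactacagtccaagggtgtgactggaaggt
The windows of Klra7 (chr6:130233273-130233572) and Klra6 (chr6:130026905-130027204) each held CTTTGA, and that of Klra1 (chr6:130386825-130387124) held TGTGGT. The Klra9 window (chr6:130193063-130193362) held neither. Of all 32851 promoter windows, 16% held CTTTGA and 16.8% TGTGGT. AGGTGTGA (T-box) and TGANTCA (AP-1) were absent from the 4 windows and present in 1.28% and 7.81% of all. The Klra6 and Klra7 windows were 68.2% identical, and the other pairs 44.2% to 52.5%.

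Klra7 reached 5 counts in 55.1% of the cells, Klra1 in 45.6%, Klra6 in 28.6% and Klra9 in 17.7%. Cells with 1 of the 4 genes were the most common (374 cells, 63.0%), followed by 2 genes (169, 28.5%), 3 genes (43, 7.24%) and all 4 (8, 1.35%). Klra1 and Klra7, the most frequent pair, met in 110 cells, 40.6% of those with Klra1 and 33.6% of those with Klra7. The median of the highest Ly49 count per cell was 16. Near the limit, 125 members had a highest Ly49 count of 5 to 9, and 67 cells that met every other term had 3 or 4; Ly6c2 was present in 88.3% and 89.1% of these, Cd7 in 49.2% and 46.9%, and Klrb1c in 15.8% and 9.38%. The Ly49 transcripts resemble each other. Of the 50-base stretches of the Klra9 transcript, 30.6% also occur in a protein-coding transcript of another Ly49 gene, inside or outside the gate. The shares were 3.15% for Klra1, 1.31% for Klra6 and 0 for Klra7. Transcripts of other types, such as those of Ly49 pseudogenes, were not searched, so sharing could be higher. Part of the Klra9 counts could therefore belong to a relative. Of Ly49 genes outside the gate, Klra3 (Ly49C) reached 5 counts in 10.6% of the cells, Klra4 (Ly49D) in 1.01%, Klra10 in 0.673% and Klra8 (Ly49H) in 0.505%.

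Depth differed between classes. The Ly49-positive cells without Cd4 or Cd8 had a median of 16890 counts and 1626 genes, Ly49-positive CD8 T cells (210 cells) 30500.5 counts, Ly49-negative T cells without Cd4 or Cd8 (1738 cells) 14494, Ly49-negative CD8 T cells (3750 cells) 29298 and CD4 T cells (964 cells) 24596. Every cell was therefore thinned at random to 8000 counts, leaving out shallower cells (16 of the 594, leaving 578), and a gene was scored present at 2 or more thinned counts. The shares below are of thinned cells unless stated. Barcodes of other types also carried T cell transcripts, and free RNA and joined cells could not be told apart: Trac was present in 49.6% of macrophage-gated barcodes (median 73146 counts) and 11.9% of melanoma-gated ones (median 146685). Shares in melanoma-gated cells are given as a background level. Those barcodes were far deeper before thinning, at a median of 146685 counts against 16890. The same free RNA would be a smaller part of their counts, so the background in the population could be higher. It was not measured.

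The cells carried alpha-beta T cell receptor transcripts, and these were detected in a smaller share of them than of CD8 T cells. Trac (T cell receptor alpha constant region, chr14:54220521-54224206) was present in 68.2% (64.2 to 71.9, unthinned 64.1%). It was present in 90.9% of Ly49-positive CD8 T cells, 72.9% of Ly49-negative T cells without coreceptor and 89.9% of Ly49-negative CD8 T cells. By summed thinned counts, Trac differed by less than 2-fold from both CD8 classes. Among the other parts of the receptor, Cd3g was present in 59.3%, Thy1 in 67.5%, Cd3e in 39.6% and Cd247 in 22.3%. At 5 counts without thinning, 367 cells (61.8%) had Trac without Trdc, 43 (7.24%) Trdc without Trac, 14 both and 170 (28.6%) neither; the last had a median depth of 14632 counts against 17926 in the first. Trac detection moved with depth, from 49% in the 149 shallowest cells to 76.5% in the 149 deepest (unthinned). A further 47 Ly49-positive barcodes without Trbc2 or Cd3d at the gate still had Trac in 58.1%, Cd7 in 55.8% and Ly6c2 in 88.4%.

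Cd8 was found less often in Ly49-positive than in Ly49-negative cells of the same depth. Of the 594 cells, 447 had no count of Cd8a or Cd8b1, and 147 (24.7%) had 1 to 4 counts of either; CD4 T cells, which should lack both, had 1 to 4 counts in 26.3%. In cells of 10000 to 20000 counts the shares were 22.0% (17.9 to 26.6) and 17.3% (13.3 to 22.0). Traces of Cd4 were rarer: 1.52% of the cells had 1 to 4 counts of Cd4, against 20.1% of the Ly49-negative cells without coreceptor. Among T-gated cells without Cd4, Cd8 at the gate was found in 5.82% of Ly49-positive and 46.2% of Ly49-negative cells of 10000 to 15000 counts. It was found in 29.7% and 73.8% at 20000 to 30000 counts, and in 80.2% (69.9 to 88.3) and 92.2% (90.5 to 93.8) at 50000 or more. Ly49-negative cells with Ly6c2 and Klrd1 at 5 counts, both detected in most of the Ly49-positive cells and of the CD8 T cells, had Cd8 in 66.1%, 87.1% and 99.3% at these depths. Which part of the Ly49-positive cells had Cd8 that went undetected was not tested.

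**Figure D1:**
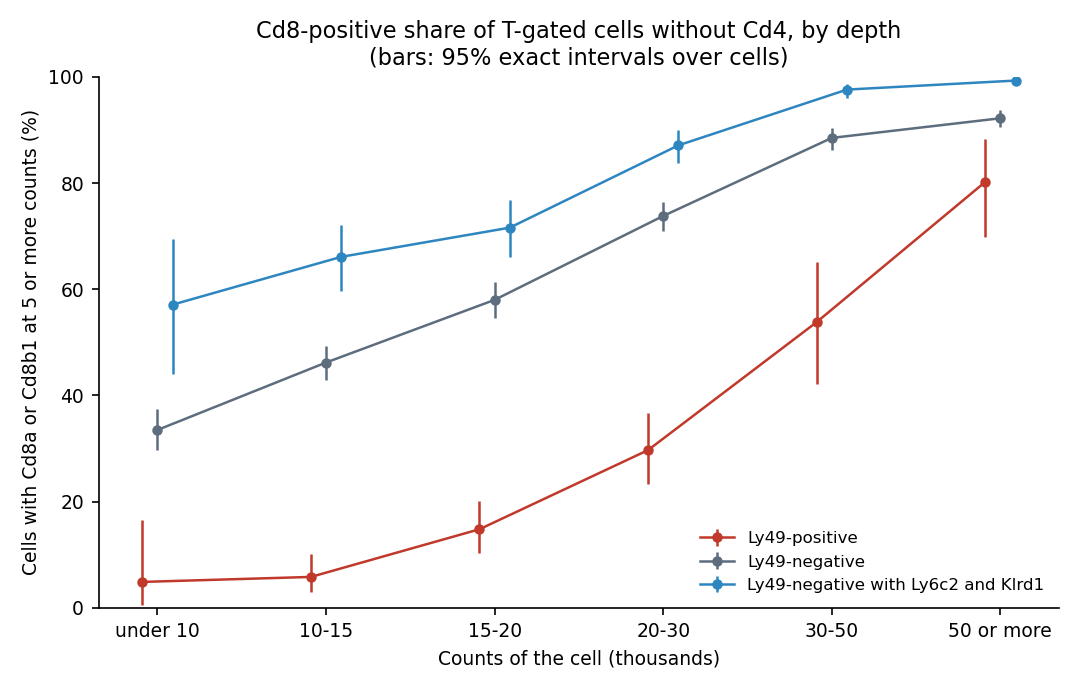
Share of T-gated cells without Cd4 that had Cd8a or Cd8b1 at 5 or more counts (y axis, %), by counts of the cell (x axis, in units of 1000), for Ly49-positive cells, Ly49-negative cells and Ly49-negative cells with Ly6c2 and Klrd1; bars are exact 95% intervals over cells. The Ly49-positive share lies below both others at each depth and climbs from 4.88% under 10000 counts to 80.2% at 50000 or more.

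Of the genes known from both CD8 memory and NK cells, some were detected in most of the cells and others in few. Ly6c2, a surface antigen of memory CD8 T cells and monocytes, was present in 85.8% of the cells (82.7 to 88.6), Ccl5, a chemokine of effector and memory T cells, in 78.2%, Il2rb, the shared receptor chain for interleukins 2 and 15, in 77.7%, Nkg7, a granule protein, in 70.9%, Klrd1 (CD94) in 63.8%, Klrk1 (NKG2D) in 35.6% and Klrc1 (NKG2A) in 32.0%. In melanoma-gated barcodes these genes were present in 3.92% (Klrk1) to 24.1% (Ccl5). Eomes and Tbx21 (T-bet), transcription factors of both cell types, were present in 6.92% and 8.48% of the population. Ly6c2 stood at 85.2% in Ly49-positive CD8 T cells, 68.4% in Ly49-negative CD8 T cells, 36.3% in Ly49-negative cells without coreceptor and 9.81% in CD4 T cells.

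NK cell genes were present in a minority. Fcer1g, the Fc receptor gamma adaptor, was present in 49.5% (45.3 to 53.6), Tyrobp (DAP12) in 20.2% (17.0 to 23.8), Klrb1c (NK1.1) in 18.3% (15.3 to 21.7) and Ncr1 (NKp46), the most NK-restricted of them, in 2.42% (1.33 to 4.03). In melanoma-gated cells the shares of Fcer1g, Tyrobp, Klrb1c and Ncr1 were 2.72%, 1.52%, 0.240% and 0.160%. Of Ncr1, Klrb1c and Tyrobp, 387 of the 578 cells (67.0%) had none, 149 had 1, 38 had 2 and 4 (0.692%) had all 3. Among all quality-filtered barcodes 24 reached 5 counts of Ncr1, and 14 of them were in this population, while the gate for NK cells (Ncr1 without Cd3d, Cd3e or Trbc2) held 1 barcode. The 14 thinned cells with Ncr1 had Trac in 9, Klrb1c in 7 and Tyrobp in 7. Fcer1g and Tyrobp are also macrophage genes, and the summed level of 12 macrophage or monocyte markers was 157 CPM (thinned counts summed over the class and scaled to a common total of 1e6) here, against 252 in Ly49-positive CD8 T cells, 448 in Ly49-negative cells without coreceptor, 341 in Ly49-negative CD8 T cells and 14779 in macrophage-gated barcodes; Csf1r and Adgre1 among them were limited by the gate.

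Genes of NKT and gamma delta T cells marked small fractions. Zbtb16 (PLZF), the transcription factor of NKT cells, was present in 4.84% (3.24 to 6.93), near the 3.73% (2.84 to 4.80) of Ly49-negative cells without coreceptor and above the 0.274% of Ly49-negative CD8 T cells. Il4, an NKT cytokine, was present in 0 of 578 cells, which allows a share of up to 0.519% (3 cells, taken as the limit of a count of 0; it bounds cells with the transcript at 2 thinned counts, not cells expressing it). Trdc, the delta constant region (chr14:54142851-54148868), was present in 10.9% (8.48 to 13.7), against 13.1% (11.5 to 14.9) of Ly49-negative cells without coreceptor, 0.957% of Ly49-positive CD8 T cells and 0.560% of melanoma-gated cells. Of the genes typical of interleukin 17-producing gamma delta cells, Cd163l1 was present in 0.173% and Blk in 0 of the 578 cells, compared with 31.5% and 17.3% of Ly49-negative cells gated as Trdc-positive and Trac-negative. Ly49-positive cells with Trdc (63 cells) had Trac in 27.0%, against 73.2% of those without, and they had more Klrb1c (33.3% against 16.5%), Tyrobp (38.1% against 18.1%) and Cd3d (87.3% against 68.0%) and less Klra6 (14.3% against 29.3%). Their Ly6c2 (87.3% and 85.6%), Tcf7 (60.3% and 57.5%) and Ikzf2 (60.3% and 56.9%) differed by less than the width of their intervals.

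Cd7, Tcf7, Ikzf2 and Xcl1 are known from memory and regulatory-type Ly49-positive CD8 cells. Each was present in more of the population than of the 3 classes compared below, taken whole. Within them, Ly49-positive CD8 cells with Cd8a alone had Tcf7 in 69.3%, Ikzf2 in 56.0% and Xcl1 in 41.3%. Other genes known from such cells went the other way: Eomes (6.92%) and Klrk1 (35.6%) were present in 12.4% and 39.7% of Ly49-positive CD8 T cells. Cd7, a surface glycoprotein of NK and T cells, was present in 59.9% (55.7 to 63.9), Tcf7 (TCF1) in 57.8% (53.6 to 61.8), Ikzf2 (Helios) in 57.3% (53.1 to 61.3) and Xcl1, a chemokine that attracts cross-presenting dendritic cells, in 43.3% (39.2 to 47.4). In melanoma-gated cells Cd7, Tcf7, Ikzf2 and Xcl1 were present in 1.44% to 4.32%. Ly49-positive CD8 T cells had Cd7 in 33.0%, Tcf7 in 43.5%, Ikzf2 in 36.4% and Xcl1 in 24.4%. Ly49-negative cells without coreceptor had them in 19.3%, 35.5%, 39.2% and 8.96%. Ly49-negative CD8 T cells had Cd7 in 10.5%, Tcf7 in 15.1%, Ikzf2 in 12.4% and Xcl1 in 7.06%. Effector and checkpoint genes were scarce. Gzmb (granzyme B) was present in 20.1%, Prf1 (perforin) in 6.06%, Pdcd1 (PD-1) in 4.84%, Lag3 in 3.98%, Mki67 (Ki-67) in 3.11% and Havcr2 (TIM-3) in 0.173%. Melanoma-gated cells had Pdcd1 in 3.84%, Lag3 in 5.12% and Havcr2 in 2.32%, so these shares are at or near the background level. Of the Nr4a orphan receptors, Nr4a1 was present in 26.8%, Nr4a2 in 63.8% and Nr4a3 in 50%; 3′ reads need not fall in the deleted part, and these values check no genotype.

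**Figure D2:**
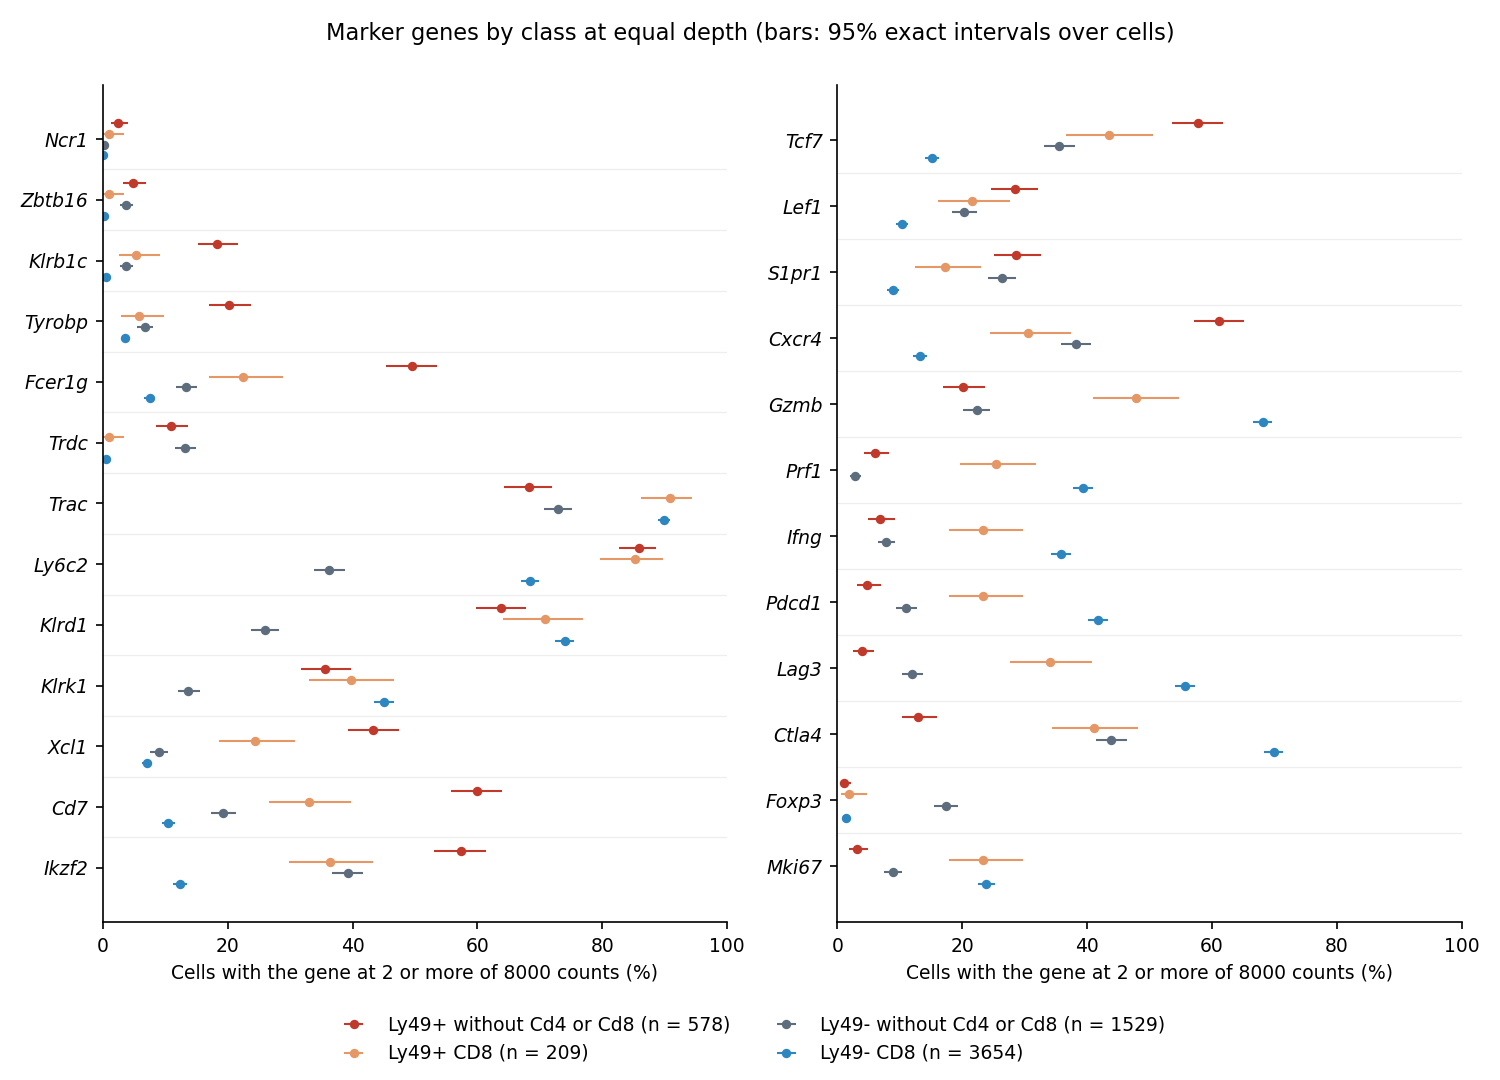
Share of cells with each gene at 2 or more counts after thinning to 8000 counts (x axis, %) in 4 classes; points are shares and bars exact 95% intervals over cells. The Ly49-positive cells without Cd4 or Cd8 are highest of the 4 for Klrb1c, Tyrobp, Fcer1g, Xcl1, Cd7, Ikzf2, Tcf7 and Cxcr4, and lie near 0 for Ncr1 (2.42%), Pdcd1 (4.84%) and Lag3 (3.98%).

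Against Ly49-positive CD8 T cells, which differ in the gate by Cd8 alone, the population had fewer effector, checkpoint and cell division transcripts. It had more Klrb1c, Tyrobp and Fcer1g transcripts, and fewer of some other NK genes. The measure is the log2 ratio of CPM from summed thinned counts with 5 counts added to each sum, over genes present in at least 5% of either class, and a gene at 1 or more in size (2-fold) is counted as higher or lower. A gene that entered through the class where it is high had to differ, so these counts describe the libraries' cells and support nothing by themselves. Of 5490 genes, 131 (2.39%) were higher and 5.72% lower. Trdc was higher by 3.48, Trf (transferrin) by 2.88, Klrb1c by 1.99, Cd9 (a tetraspanin) by 1.94, Tyrobp by 1.76 and Fcer1g by 1.71 on this log2 scale, and Atn1, Lmna and Kctd12 by 1.52, 1.5 and 1.48. Car2 (carbonic anhydrase 2) had 469 thinned counts in the population and 1 in the Ly49-positive CD8 cells, or 101 against 0.598 CPM; it was present in 10% and in 0 of 209 cells, which allows a share of up to 1.44% by the same limit of 3 cells.

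Lower in the same comparison were the checkpoint genes Havcr2 (-5.42), Entpd1 (CD39, -4.34) and Lag3 (-3.47), the adhesion gene Alcam (-3.44), the cell division genes Cdk1 (-3.60), Ube2c (-3.16) and Cdca8 (-3.15), and Gm156, Slc17a6 and AA467197 (-5.04, -4.19 and -3.22). Ube2c was present in 1.73% of the population and 15.8% of Ly49-positive CD8 cells, but its ratio was 0.21 in unthinned cells of 10000 to 20000 counts, where few Ly49-positive CD8 cells remain. In those unthinned cells 321 genes were higher and 496 lower, of which 51 and 67 were among the genes counted above. By list, 11 of 12 proliferation genes were lower (median -2.62, against -0.04 over all 5490 genes), 5 of 7 inhibitory receptors (median -2.36) and 9 of 18 cytotoxic genes (median -1.21), with Xcl1 the 1 cytotoxic gene that was higher (1.05). The NK list split, with 4 of 9 genes higher (Klrb1c, Tyrobp, Fcer1g and the integrin Itga2 at 1.31) and 4 lower (Prf1 -2.41, Klri2 -1.79, Irf8 -1.52, Gzma -1.43). Of 9 tested NKG2 and lectin receptor genes, Klrb1c alone was higher and Klri2 alone lower (median 0.18). Of 11 tested genes listed for Ly49-positive regulatory or virtual memory CD8 cells, 2 were higher and none lower (median 0.34). The higher ones were Xcl1 and Cd7, both given beforehand as markers, so they lend this list no support. None of 16 naive or memory and recirculation genes passed 2-fold (median 0.39); Tcf7 was at 0.57 and Il7r at 0.95. Of 17 T cell receptor and signalling genes, Cd6 (-1.40) and Themis (-1.33), which tune receptor signals, were lower and none was higher.

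With Pdcd1-positive CD8 cells left out, some of these ratios were smaller in size and others larger. Against the 138 Ly49-positive CD8 T cells with under 5 counts of Pdcd1, 112 of 5494 genes (2.04%) were higher and 270 (4.91%) lower. Klrb1c (1.48), Fcer1g (1.34), Tyrobp (1.22), Trdc (3.05), Trf (2.35) and Cd9 (1.39) were again past 2-fold, as were Il16, Fam129a, Tbc1d20 and Chd6 (1.35 to 1.52). Xcl1 and Cd7 were not, at 0.63 each. Lag3 (-2.94), Top2a (-2.20), Mki67 (-1.87), Stmn1 (-1.87) and Ccl3 (-1.80) were lower, 9 of 11 proliferation genes and 3 of 15 cytotoxic genes among them.

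The Ly49-positive CD8 cells differed with the Cd8 chains detected, and those with 1 chain had shares nearer to the population for most of the genes given here. The 76 cells with Cd8a and no Cd8b1 at the gate (median 21875 counts) had Ikzf2 in 56.0% (44.1 to 67.5), Xcl1 in 41.3% (30.1 to 53.3), Tcf7 in 69.3% (57.6 to 79.5), Gzmb in 25.3%, Lag3 in 8.0% and Mki67 in 9.33%. The 119 cells with both chains (median 47516 counts) had Ikzf2 in 21.0%, Xcl1 in 11.8%, Tcf7 in 24.4%, Gzmb in 65.5%, Lag3 in 54.6% and Mki67 in 35.3%. The 15 cells with Cd8b1 alone (median 23371 counts) had Ikzf2 in 60% (32.3 to 83.7), Xcl1 in 40% (16.3 to 67.7), Tcf7 in 66.7%, Gzmb in 20% and Fcer1g in 40%, and none had Lag3 or Mki67 (upper bound 21.8%). Fcer1g was present in 49.5% of cells without coreceptor, 34.7% of those with Cd8a alone and 12.6% of those with both chains, and Klrb1c in 18.3%, 10.7% and 0.840%. Tyrobp (4.00%) and Trdc (1.33%) of the Cd8a-only cells stayed below the population's 20.2% and 10.9%, and Trac (86.7%, 76.8 to 93.4) and Cd6 (18.7%, 10.6 to 29.3) above its 68.2% and 7.27%. The 354 Ly49-negative cells with Cd8a alone had Ikzf2 in 19.4%, Xcl1 in 7.96%, Fcer1g in 7.96% and Lag3 in 32.8%. The chain classes differ in depth before thinning, and the part of missed Cd8b1 in them was not tested.

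**Figure D3:**
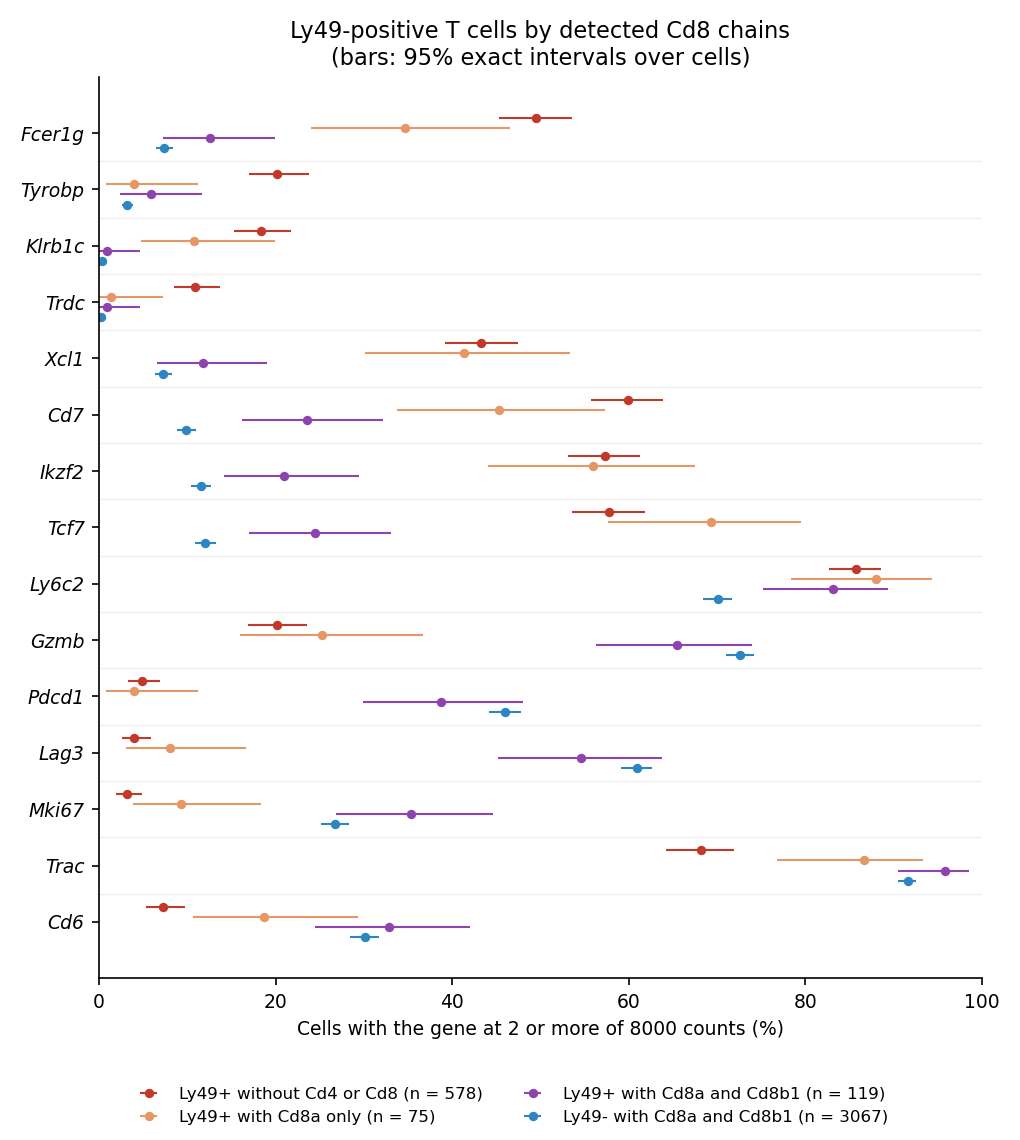
Share of cells with each gene at 2 or more of 8000 counts (x axis, %) in Ly49-positive cells without Cd4 or Cd8, with Cd8a alone and with Cd8a and Cd8b1, and in Ly49-negative cells with both chains; bars are exact 95% intervals over cells. For Ikzf2, Xcl1, Gzmb, Pdcd1 and Lag3 the first 2 classes lie together (Xcl1 at 43.3% and 41.3%) and apart from the cells with both chains (11.8%).

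Against Ly49-negative T cells without Cd4 or Cd8, the population had fewer regulatory and helper T cell transcripts and more NK receptor transcripts. Of 5150 genes, 72 (1.40%) were higher and 202 (3.92%) lower. The lower genes were led by Tnfrsf4 (OX40, -4.73), Foxp3 (the regulatory T cell factor, -4.41), Maf (-3.29), Ctla4 (-3.22), Izumo1r (folate receptor 4, -2.88), Nrp1 (-2.80), Ccr2 (-2.78), Irf4 (-2.76), Capg (-2.63) and Cd74 (-2.60). Foxp3 was present in 1.04% of the population and 17.4% of the Ly49-negative cells. All 7 tested genes of the CD4-like list were lower, and the Ly49-negative class also held the traces of Cd4 given above. Higher were Klra3 (2.68), Car2 (2.57), Xcl1 (2.44), Klrb1c (2.20), Cd160 (2.07), Atp1b1 (2.06), Fcer1g (2.00), Cables1 (1.82), Klre1 (1.77) and Qrfp (1.71). Klra3 is a Ly49 gene, and the Ly49-negative class was chosen for low counts of its relatives. Against Ly49-positive CD8 T cells Klra3 was at -0.07. How much of its ratio the gate set was not tested. Of 16 CD8-like genes, 5 were higher (Cd160, Klre1, Ly6c2 at 1.55, Klrk1 at 1.48 and Klrd1 at 1.33) and none lower, with a median of 0.38 against -0.02 over all 5150 genes. Of 7 NK genes, 4 were higher. Trdc did not pass 2-fold (-0.93), and Klrg1 (-4.24), a receptor of terminal effector cells, was lower.

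Against Ly49-negative CD8 T cells the population had more memory-type and fewer effector-type and cell division transcripts. Of 5520 genes, 316 (5.72%) were higher and 443 (8.03%) lower. Of 16 naive or memory and recirculation genes, 11 were higher (median 1.52 against -0.02 over all 5520 genes), with Id3 at 2.61, Nsg2 at 2.05 and Tcf7 at 1.94, and Ccr7, the lymph node homing receptor, was lower (-1.45). Of 12 proliferation genes, 11 were lower (median -2.62). Of 18 cytotoxic genes, 12 were lower (median -1.46), led by Gzmf (-6.02), Gzmk (-4.45), Ccl3 (-3.29) and Prf1 (-3.19), while Xcl1 (2.81) and Ctsw (1.05) were higher. Of 7 inhibitory receptors, 5 were lower: Havcr2 (-6.24), Lag3 (-4.65), Entpd1 (-4.62), Pdcd1 (-3.14) and Ctla4 (-2.98). Of 14 exhaustion or effector transcription factors, 6 were lower, with Prdm1 (Blimp-1) at -3.40, Irf4 at -2.73 and Tox at -2.30, and Ikzf2 was higher at 2.99. No CD8-like gene of 18 was higher and 7 were lower; Klrk1 (0.02) and Klrd1 (-0.53) were within 2-fold. The genes with the largest ratios outside the lists were Atp1b1 (a sodium pump subunit, 4.70), Trf (4.56), Zbtb10 (4.19), Car2 (3.43) and Pde2a (a cyclic nucleotide phosphodiesterase, 2.93) among the higher, beside Klrb1c (5.51), Trdc (3.36), Fcer1g (3.00) and Cd7 (2.88). Among the lower they were Gm156 (-5.80), Nrn1 (-5.46), Slc17a6 (-5.31), Sdcbp2 (-4.48), Adam8 (-4.27) and Alcam (-4.24). The summed level of 10 ribosomal protein genes was 22193 CPM in the population and 20644 in Ly49-negative CD8 T cells, and that of 5 heat shock genes 2553 and 2667, so these general measures moved by far less than 2-fold.

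**Figure D4:**
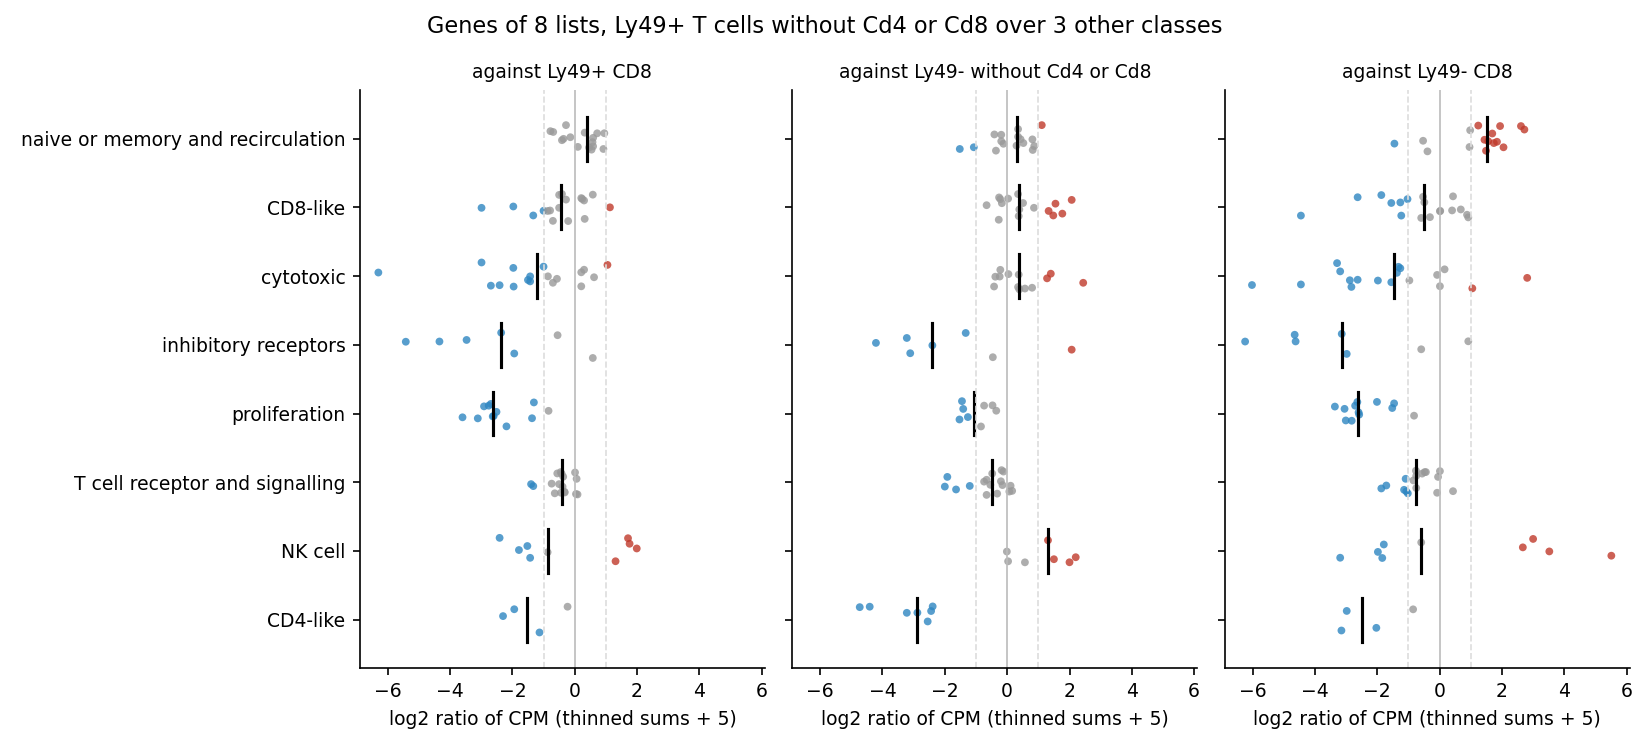
Log2 ratio of CPM (x axis, sums of thinned counts plus 5) for each tested gene of 8 lists (rows), for Ly49-positive cells without Cd4 or Cd8 over 3 other classes (panels); red points are at 1 or more, blue at -1 or less, and black bars are list medians. The naive or memory list centres on 1.52 against Ly49-negative CD8 T cells and on 0.39 against Ly49-positive CD8 T cells, and the CD4-like list lies wholly below -1 against Ly49-negative cells without coreceptor.

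Hashtags served as samples of unknown genotype, and the population was present under each of the 6. Under A0301 it held 126 of 1359 T-gated cells (9.27%, 7.78 to 10.9), under A0302 12 of 185 (6.49%, 3.40 to 11.1) and under A0303 20 of 255 (7.84%, 4.86 to 11.9). The shares were 5.60% for A0304 (19 of 339 cells, 3.41 to 8.61), 5.98% for A0305 (31 of 518, 4.1 to 8.39) and 8.24% for A0306 (61 of 740, 6.36 to 10.5). The intervals overlap throughout. These cells held few hashtag counts (median 9), and 269 of the 594 cells (45.3%) could be called. Ly6c2 was present in 73.3% to 94.7% of the cells over the 6 hashtags, Cd7 in 55.3% to 73.7%, Tcf7 in 50.8% to 68.4%, Ikzf2 in 45.9% to 75%, Fcer1g in 49.6% to 63.3% and Xcl1 in 37.7% to 57.9%. Klrb1c was found in 0 of the 12 A0302 cells and in 36.8% under A0303, 23.3% under A0305, 16.3% under A0301, 13.1% under A0306 and 5.26% under A0304. Its intervals are wide, at 16.3 to 61.6 for A0303 and 0.133 to 26.0 for A0304. Nr4a1 ranged from 20% to 31.6%, Nr4a2 from 50% to 68.4% and Nr4a3 from 31.6% to 58.3%, with no hashtag apart from the rest for all 3.

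The contrasts with the 2 Ly49-negative classes were also computed within hashtags. The contrast with Ly49-positive CD8 T cells was not, and that class held 2 (A0302) to 43 (A0301) cells per hashtag. Of the 20 genes named against Ly49-negative cells without coreceptor, 19 had the same sign under each of the 6 hashtags, the exception being Cd160 at -0.18 for A0304. Of the 20 named against Ly49-negative CD8 T cells, 19 did, the exception being Sdcbp2 at 0.66 for A0302, the hashtag with 12 cells. Fcer1g against Ly49-negative CD8 T cells lay between 1.73 and 3.5 over the hashtags, Ikzf2 between 2.48 and 3.79, Cd7 between 2.48 and 4.51, Zbtb10 between 3.89 and 4.53 and Lag3 between -4.82 and -2.52. These genes were picked from the pooled cells, so the agreement is a description of spread. Cells assigned to hashtags at random could give the same signs, so it cannot show that the samples were alike.

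**Figure D5:**
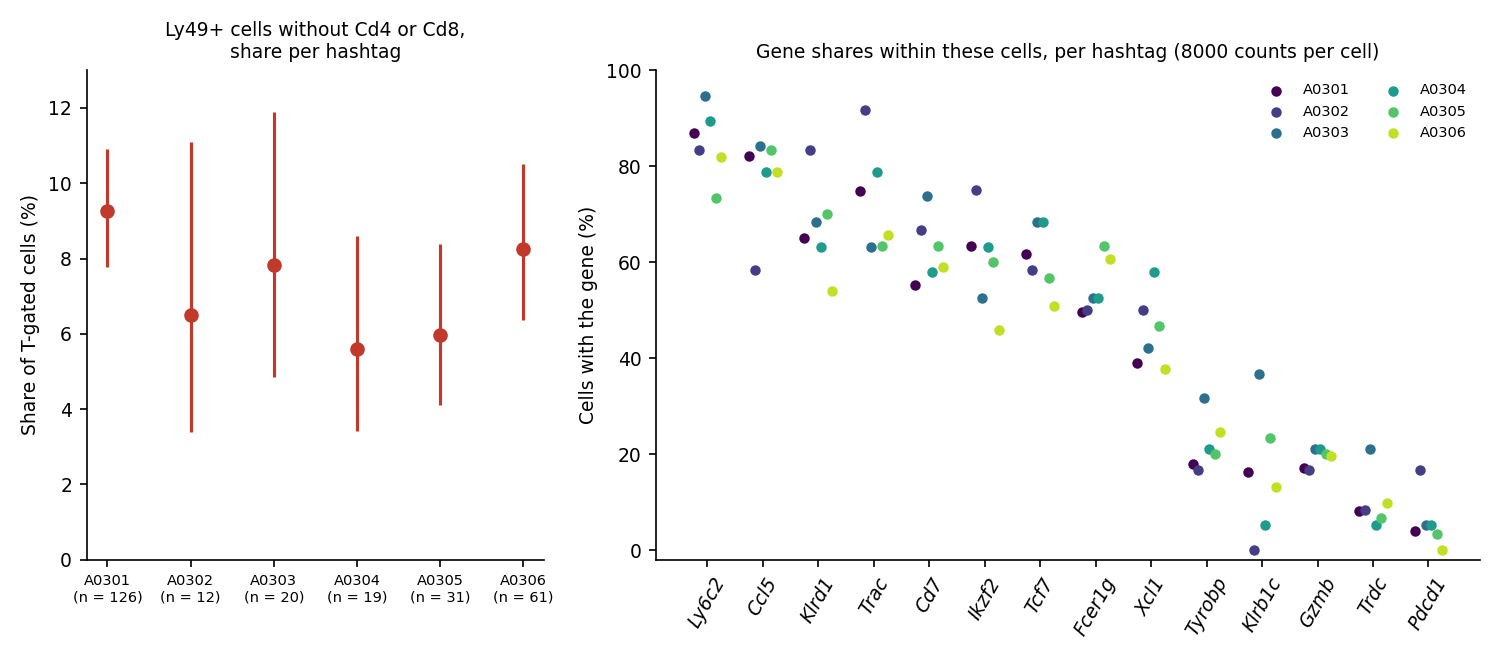
Left, share of T-gated cells that were Ly49-positive without Cd4 or Cd8 (y axis, %) for each of 6 hashtags, with exact 95% intervals; right, share of those cells with each gene at 2 or more of 8000 counts (y axis, %), 1 point per hashtag. Shares of the population run from 5.60% (A0304) to 9.27% (A0301), and Ly6c2 is at 73.3% or above under each hashtag, whereas Klrb1c spreads from 0 to 36.8%.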

How the data were processed

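The deposited gene counts and hashtag counts are whole numbers per cell barcode. The genome build was GRCm38, and R 3.5.3, Bowtie2 (2.3.4.1, 2.4.2) and cutadapt 2.10 were used in roles not described, per the submitters' processing notes. Nothing used here states whether molecular identifiers were collapsed. The median non-zero value was 7, so counts were treated as reads, and reads of 1 molecule are not independent. Of 12016 barcodes, 11318 had at least 500 genes and at most 25% mitochondrial counts. Members and gene lists were chosen with earlier results of these data known. Cells were thinned to 8000 counts with a fixed seed, and summed per class. Named genes are the 10 highest and 10 lowest ratios present in at least 10% of the higher class, outside the gate's genes, plus 31 gene lists with examples by size; some genes are not reported here. Hashtags were called at a log likelihood gain of 3 over background and over any other hashtag. No doublet caller was run; members with 10 or more counts of Lyz2, C1qa, Cd79a, Pmel or Dct were removed as an alternative. The planned comparison with NK-gated cells was not made, because that gate held 1 cell. The comparison was tested on simulated data. Computing used scipy 1.17.1, numpy 2.4.6, Biopython 1.88, matplotlib 3.10.9 and pandas 2.3.3 under Python 3.11.15.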

Additional observations from a re-analysis of the deposited data

Results flagged for a closer look

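For 4 genes, the share of the population had 1 hashtag far from the other 5 by Dixon's criterion. Ccl5 was present in 58.3% of the 12 cells of A0302, against 78.7% to 84.2% elsewhere, and Pdcd1 in 16.7% of the same 12 cells (2 cells), against 0 to 5.26%. Klrc1 was present in 10.5% of the 19 thinned cells of A0303, against 31.6% to 41.7%, and Trdc in 21.1% of them (4 cells), against 5.26% to 9.84%. With 29 sets of values examined, 4 were marked, and chance marks about 1 in 20. Hashtags A0302 and A0303 have few cells, and the exact intervals of these shares (27.7 to 84.8 for Ccl5, 1.30 to 33.1 for Klrc1) reach into the range of the rest.

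A further 11 cells of the population were called for hashtags A0307 to A0312, which lie beyond the 6 that the labels number; they entered no hashtag comparison.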

How the results depend on the processing

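The number of cells stayed within 1.5 times of 594 under the other gates tried, apart from 333 when both Trbc2 and Cd3d were required. Klrb1c was present in 15.2% at 5000 counts per cell, 22.2% at 12000, 14.4% in unthinned cells of 10000 to 20000 counts, and 24.0% or 15.1% when present meant 1 or 3 counts. Tyrobp was present in 24.0% at 12000, 16.6% in unthinned cells of 10000 to 20000 counts and 24.7% at 1 count, and Zbtb16 in 2.99% in those unthinned cells and 7.61% at 1 count. Genes higher against Ly49-positive CD8 T cells numbered 69 at 5000 counts, 321 in cells of 10000 to 20000 counts, 268 without thinning, 220 at 1 count, 46 at a presence of 10%, 450 without a presence filter and 35 with 20 counts added. Lower ones numbered 496 in cells of 10000 to 20000 counts, 599 without thinning, 584 at 1 count, 182 at 3 counts, 148 at 10% and 4974 without the filter. Against Ly49-negative cells without coreceptor, 112 were higher at 12000 counts, 113 at 1 count, 116 with both T cell genes, 42 at 10% and 4361 without the filter, and 82 and 1043 lower at 10% and without it. Against Ly49-negative CD8 T cells, 168 were higher in cells of 10000 to 20000 counts, 485 at 1 count, 168 at 10% and 9460 without the filter; 266, 684, 262 and 1132 were lower in cells of 10000 to 20000 counts, without thinning, at 10% and without the filter. Without the filter, most genes have almost no counts, and the same 5 counts added to sums of unequal totals set their ratio.

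Of 980 values of named genes under the alternatives, 972 kept direction and 2-fold size, 7 fell under 2-fold, and Ube2c against Ly49-positive CD8 T cells reversed to 0.21 in cells of 10000 to 20000 counts; the cause was not tested. In those cells 67 of the genes lower against Ly49-positive CD8 T cells (21.3%) and 51 of the 131 higher (38.9%) were called again. Without cells at 5 counts of Trdc, 114 of the 131 higher (87.0%) and 299 of the lower (95.2%) were. The A0304 share was 3.17% when a hashtag needed 60% of the counts. The Pdcd1 and Trdc exclusions were chosen after seeing the data. No paired analysis was possible because the labels number no replicates. Depth limits genes present in few cells, such as Ncr1 and Zbtb16.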

Other observations

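Of 14 tested chemokine receptor and homing genes, 2 were higher and 2 lower than in Ly49-positive CD8 T cells, and of 11 cytokine receptors 0 and 1, against 2.39% and 5.72% of all genes. Against Ly49-negative CD8 T cells, 5 of 15 and 3 of 12 were higher and 5 and 1 lower, against 5.72% and 8.03% of all genes. The genes named here are examples from these lists. Cxcr4, the receptor for the stromal chemokine CXCL12, was present in 61.2% of the cells, against 30.6% of Ly49-positive and 13.2% of Ly49-negative CD8 T cells (log2 ratios 1.21 and 2.54). It did not pass 2-fold against Ly49-positive CD8 T cells under 5 counts of Pdcd1 (40.1%, ratio 0.78). Nor did it against Ly49-negative cells without coreceptor (38.3%, ratio 0.72). Cxcr6 and Il10ra were lower against Ly49-positive CD8 T cells, at -2.41 and -2.81, and Cxcr3 was higher at 1.13. Il4ra was higher against Ly49-negative CD8 T cells at 2.16, and Itga1, an integrin of tissue-resident cells, at 1.28, while S1pr1, the receptor for tissue exit, was at 1.69. Itgae, the integrin of epithelial residence, was lower against Ly49-negative cells without coreceptor, at -2.91.

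Car2 marked 58 of the 578 thinned cells. They had Tyrobp in 43.1% (interval from 30.2%), against 17.7% of cells without Car2, Klrb1c in 37.9% against 16.2%, Trac in 48.3% against 70.4%, and Tcf7 in 65.5% against 56.9%. The 28 cells with Zbtb16 had Trf in 32.1% (interval from 15.9%) against 9.09% of the rest, Klra1 in 71.4% against 45.8%, and Ccl5 in 57.1% against 79.3%. These genes were singled out after their values had been seen.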
